A study of Mus musculus with 40 samples.

Results

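Acute phase proteins are plasma proteins whose hepatic synthesis shifts during inflammation. The set described here holds 10 of the 55487 genes in the count table. They are the positive acute phase genes Lcn2, Orm1, Orm2, Hp, Hpx, Fga, Fgb, and Fgg, and the negative acute phase genes Alb and Ttr. They were chosen by gene symbol as known acute phase genes, not by a cutoff on their values. All 10 passed the filter on low counts and were compared in whole liver between WT mice and mice without Nampt in hepatocytes (HNKO). The HNKO mice (Nampt fl/fl, Alb-Cre+/-) carry a Cre driven by the albumin promoter, which directs the deletion to hepatocytes and leaves Nampt in the other cells of the liver. The WT mice were littermates with floxed Nampt alleles. All mice were female, on the C57BL/6JBomTac background, and 9 weeks old when a purified diet (PD) was begun. Feeding lasted 3, 6, 12, or 21 days. In the labels these days stand under age, but according to the methods of the study they count the time on PD, and they are read in that way here. A library was made from a single liver, and 38 were compared. For WT mice these were 5, 4, 5, and 5 libraries after 3, 6, 12, and 21 days, and for HNKO mice 5, 5, 6, and 3.

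In the acute phase response, cytokines of the interleukin-6 and interleukin-1 families act on hepatocytes through STAT3, NF-κB, and C/EBP factors. Synthesis of defense, transport, and clotting proteins increases, and synthesis of abundant carrier proteins such as albumin and transthyretin decreases. The positive members fall into proteins that bind iron siderophores (Lcn2) or small lipophilic compounds (Orm1 and Orm2), scavengers of hemoglobin (Hp) and heme (Hpx), and the chains of the clotting protein fibrinogen (Fga, Fgb, and Fgg).

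Nampt itself, counted over the whole gene and so not separately over its floxed part, was lower in HNKO livers by 0.83 ± 0.12 on the log2 scale (SE) over the mean of the 4 days (adjusted p = 2.61e-06, edgeR). The genotypes did not overlap for Nampt at days 3, 12, and 21. At day 6, 4 of the 5 HNKO libraries lay below every WT library. By the daily tests, Nampt was called lower at days 3, 6, and 12 (-0.93, -0.90, and -0.82, adjusted p = 0.0193, 0.0128, and 0.0208, edgeR) and was not called at day 21 (-0.69, adjusted p = 0.161). Gdap10, a further gene on that strand, overlaps Nampt. Total counts ranged from 16151037 to 64181492 per library, with a median of 26466478.5. The summed CPM (counts scaled to a library of 1000000) of 10 hepatocyte markers lay between 19222 and 40238 in all 38 libraries. A further 2 HNKO libraries of day 21, described as failing quality control, were not used in the comparisons.

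At day 6, 9 of the 10 members were called different between genotypes, and fewer were called at each of the other days. A gene is called higher or lower where its adjusted p-value from edgeR's quasi-likelihood test was under 0.05, with adjustment over all 20297 tested genes. At day 6, 7 of the 8 positive genes were higher in HNKO livers, against 8.42% of all tested genes. Both negative genes were lower, against 4.37%. At day 3, only Lcn2 among the 10 was higher and none was lower, where 2.95% and 1.71% of all genes were called in these directions. At day 12, Lcn2, Orm2, Hp, and Hpx were higher and none was lower, against 4.56% and 3.27%. At day 21, only Lcn2 was higher and none was lower, against 2.21% and 0.916%. For the mean of the 4 days, 5 positive genes were higher and both negative genes were lower, where 19.2% of all genes were higher and 17.3% were lower. This mean is built from the same libraries as the 4 daily comparisons and adds no new samples.

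The median log2 fold change, HNKO over WT, of the 8 positive genes on days 3, 6, 12, and 21 was 0.24, 1.23, 0.58, and 0.45 in turn. That of the 2 negative genes was -0.39, -0.66, -0.33, and -0.36. The median over all tested genes stayed between -0.01 and 0.01. With scaling by total counts in place of TMM, the median over all genes was 0.18 to 0.20 at the 4 days, and the split of all calls at day 6 went from 1709 higher and 887 lower to 2948 higher and 223 lower. Among the members this scaling gave 8 higher and 2 lower at day 6. The genotype by day interaction was called for 0 of the 10 members, as for 0% of all genes, with edgeR, and for 0 members with DESeq2. At an unadjusted p under 0.05, the interaction was found for Lcn2, Orm2, Hp, and Hpx and for 4.76% of all genes. A call at one day and not at another therefore does not show that the days differ.

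**Figure D1:**
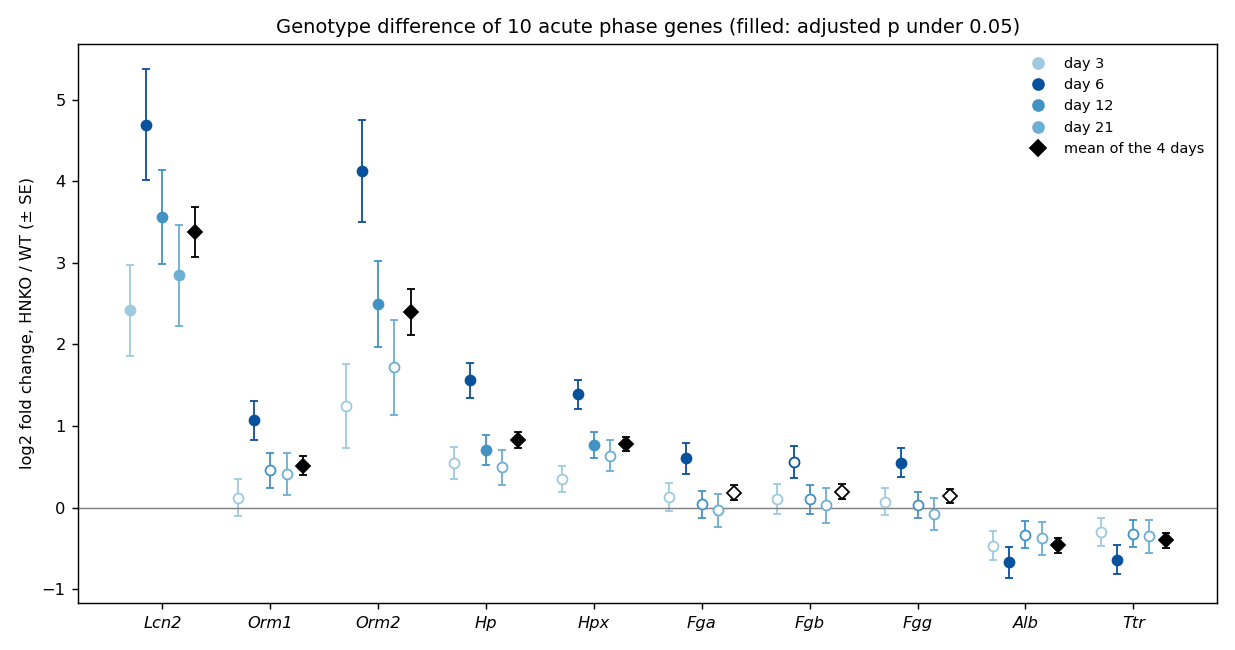
Log2 fold change, HNKO over WT, of each member (x axis) at days 3, 6, 12, and 21 and for the mean of the 4 days, with bars of ± SE and filled symbols for an adjusted p under 0.05. The day 6 estimate is the farthest from 0 in each member, and Lcn2 and Orm2 stand above 4 on the log2 scale at that day.

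Lcn2 encodes lipocalin-2, which binds bacterial siderophores and is made by injured hepatocytes and also by neutrophils. Its gene lies on the minus strand of chromosome 2, from 32384633 to 32388252 (GRCm38). At day 6, the WT libraries read 3.40, 3.54, 4.33, and 4.76 log2 CPM, and the HNKO libraries read 8.35, 8.54, 8.57, 8.96, and 9.35 log2 CPM. Every HNKO library was above every WT library by a wide margin. The difference was 4.69 ± 0.68 on the log2 scale (25.8-fold, adjusted p = 3.87e-05, edgeR). At day 3, the WT libraries read 2.94, 4.31, 4.41, 5.26, and 5.84 log2 CPM, and the HNKO libraries read 6.53, 6.86, 6.89, 7.003, and 8.30 log2 CPM. The genotypes did not overlap there either, and HNKO library 3 held the highest value. The difference was 2.42 ± 0.56 (5.35-fold, adjusted p = 0.0110). In bulk liver RNA, a different number of cells that make a transcript and a different amount of it per cell cannot be told apart.

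At day 12, the Lcn2 level in WT livers ran from 3.19 to 4.57 log2 CPM, with a median of 3.52. In the 6 HNKO livers it ran from 4.44 to 8.35 with a median of 7.83. The HNKO livers were split, since libraries 32 and 35 read 4.44 and 5.14 log2 CPM, within or close to the WT range, while libraries 11, 12, 13, and 36 all read at least 7.81 log2 CPM. The summed CPM of 12 neutrophil markers was 4.70 and 5.57 in libraries 32 and 35, 20.6, 15.9, and 12.6 in libraries 11, 12, and 13, and 8.36 in library 36, against 4.15 to 5.51 in the WT livers of this day. The part of these cells in the split was not tested. Over all 6 the difference was 3.56 ± 0.58 (11.8-fold, adjusted p = 0.000461, edgeR). At day 21, the WT libraries read 1.90, 2.86, 3.42, 3.78, and 4.03 log2 CPM, and the HNKO libraries read 5.07, 5.93, and 6.98 log2 CPM. These did not overlap. The difference was 2.85 ± 0.62 (7.19-fold, adjusted p = 0.00981). Without HNKO library 37 it was 2.22 with an adjusted p of 0.257, so that the call at day 21 rests on this library. Of the 3 HNKO libraries, it had the highest sum of neutrophil markers (14.9 CPM, against 6.62 and 7.88) and the lowest sum of hepatocyte markers (22814 CPM). For the mean of the 4 days, Lcn2 was 10.4-fold higher (3.38 ± 0.30 log2, adjusted p = 5.04e-10).

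**Figure D2:**
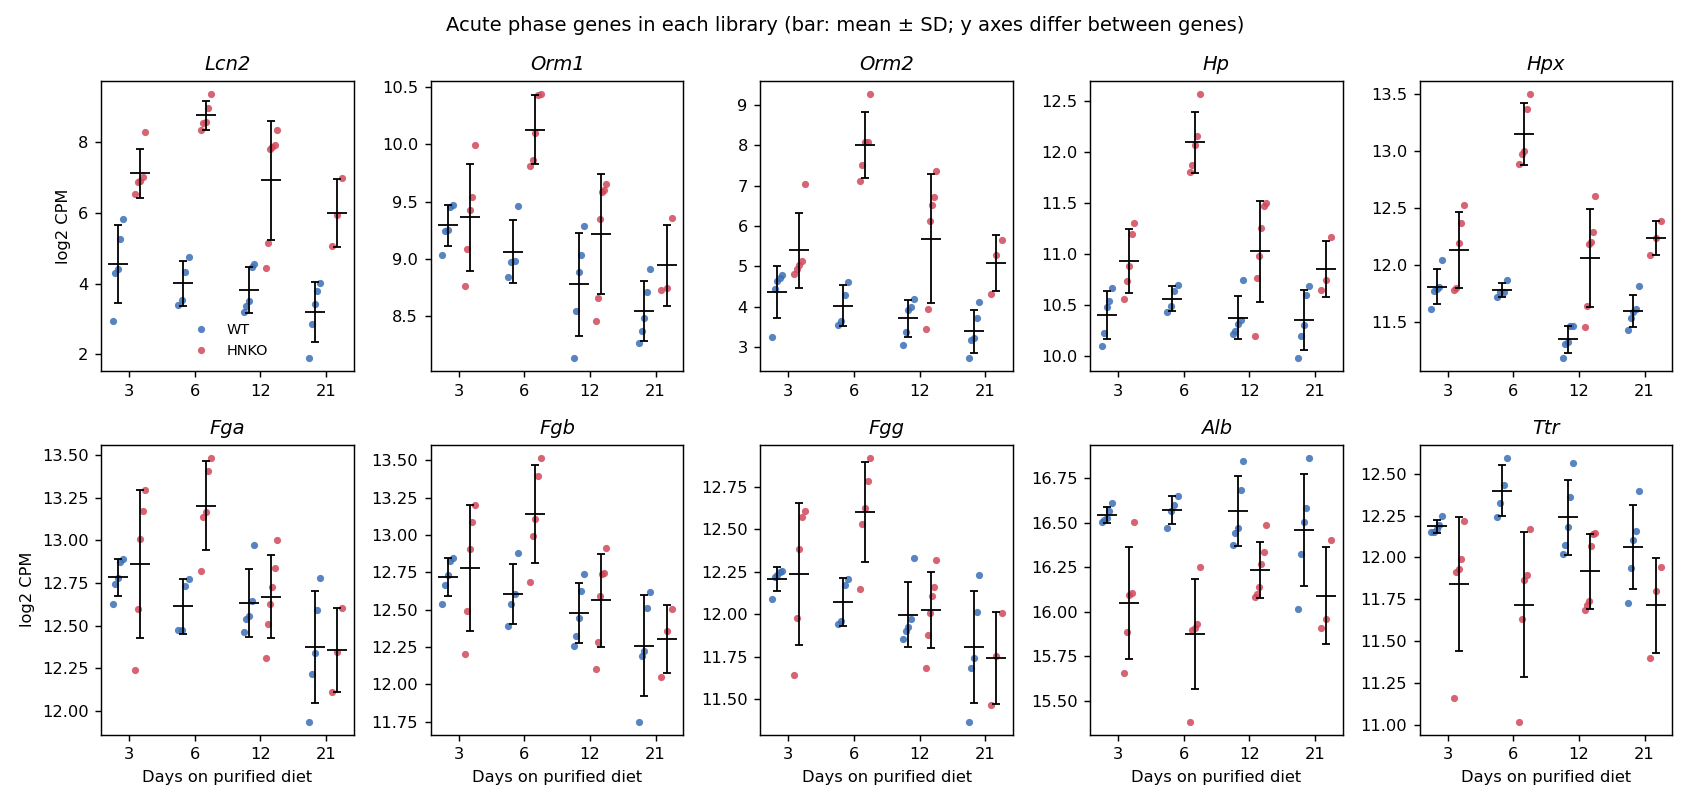
Log2 CPM of the 10 members (1 panel each, with its own y axis) in WT (blue) and HNKO (red) livers after 3, 6, 12, and 21 days of PD, 1 point per library sorted within a group, with the mean ± SD. Lcn2, Orm1, Orm2, Hp, and Hpx of HNKO livers lie above every WT library at day 6, and 2 HNKO libraries of day 12 lie near the WT range in Lcn2 and Orm2.

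Orm1 and Orm2 encode α1-acid glycoproteins, carriers of lipophilic and basic compounds. The neighboring genes lie on the plus strand of chromosome 4, Orm1 from 63344560 to 63348163 and Orm2 from 63362449 to 63365878, with the paralog Orm3 between them. Of all 51-base stretches in the Orm1 transcripts, 20% also occur in Orm2, so that reads from these stretches may not tell the paralogs apart. The levels are given with this limit. Orm2 was low in WT livers, at a median of 19.4 CPM per kilobase of exon (FPKM), whereas Orm1 stood at 648 FPKM.

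At day 6, Orm2 read 3.54, 3.65, 4.28, and 4.60 log2 CPM in WT livers and 7.10, 7.52, 8.07, 8.08, and 9.26 log2 CPM in HNKO livers. No libraries overlapped. Orm2 rose by 4.12 ± 0.63 (17.4-fold, adjusted p = 8.02e-05, edgeR), which took its mean level from 21.8 ± 7.7 to 380 ± 242 FPKM (SD, n = 4 and 5). Orm1 read 8.84, 8.97, 8.98, and 9.47 log2 CPM in WT livers and 9.81, 9.86, 10.10, 10.43, and 10.43 log2 CPM in HNKO livers. It rose by 1.07 ± 0.24 (2.10-fold, adjusted p = 0.00366), again without overlap. Orm2 thus had the larger fold change and Orm1 the larger level per length in both genotypes.

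At day 3, Orm2 read 3.24, 4.43, 4.62, 4.71, and 4.78 log2 CPM in WT livers and 4.82, 4.94, 5.03, 5.14, and 7.04 log2 CPM in HNKO livers. The groups did not overlap, but 4 of the 5 HNKO libraries lay just above the highest WT library and library 3 alone was far higher. The difference of 1.25 ± 0.52 did not pass the test (adjusted p = 0.154, edgeR), and it was 0.54 without library 3. At day 12, Orm2 ran from 3.05 to 4.19 log2 CPM in WT livers and from 3.45 to 7.36 in HNKO livers, with medians of 3.92 and 6.32, and the difference was 2.50 ± 0.53 (adjusted p = 0.00497). Libraries 32 and 35, which were low in Lcn2, were the lowest here too, at 3.45 and 3.95. At day 21, Orm2 read 4.31, 5.28, and 5.64 log2 CPM in HNKO livers, all above the highest WT value of 4.12, with a difference of 1.72 ± 0.58 (adjusted p = 0.0916). Orm1 differed by 0.12, 0.46, and 0.41 at days 3, 12, and 21, with none of these passing the test (adjusted p from 0.185 to 0.815). With total-count scaling it was called at day 12 (0.65, adjusted p = 0.0269, edgeR). The third paralog, Orm3, was low, at 49 to 755 counts per library, and its differences of 0.42, 1.12, 0.73, and -0.12 at the 4 days did not pass the test either.

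Hp encodes haptoglobin, which captures free hemoglobin, and Hpx encodes hemopexin, which binds free heme. Hp lies on the minus strand of chromosome 8, from 109575128 to 109579172, and Hpx on the minus strand of chromosome 7, from 105591613 to 105600137. At day 6, Hp read 10.43, 10.49, 10.63, and 10.69 log2 CPM in WT livers and 11.81, 11.88, 12.07, 12.16, and 12.57 log2 CPM in HNKO livers. Hpx read 11.72, 11.76, 11.77, and 11.86 log2 CPM in WT livers and 12.89, 12.98, 12.998, 13.37, and 13.50 log2 CPM in HNKO livers. In both genes every HNKO library was at least 1 log2 unit above the highest WT library. Hp rose by 1.56 ± 0.21 (2.95-fold, adjusted p = 1.47e-05, edgeR) and Hpx by 1.39 ± 0.18 (2.62-fold, adjusted p = 8.67e-06). The share of all counts that mapped to Hp had a median of 0.139% in WT livers and 0.467% in HNKO livers at this day.

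At day 12, Hp was higher by 0.71 ± 0.19 (adjusted p = 0.0180, edgeR) and Hpx by 0.76 ± 0.16 (adjusted p = 0.00476). Without HNKO library 13, Hp differed by 0.61 (adjusted p = 0.0539), and in a fit of the 2 groups of the day alone by 0.72 (adjusted p = 0.0748). HNKO library 35, low in Lcn2 and Orm2, also held the lowest HNKO value of both genes, 10.20 log2 CPM in Hp and 11.46 in Hpx, and library 32 held the second lowest of both. Library 35 also had the highest summed CPM of 5 genes of red blood cells, 685 against at most 311 in any other library. The part of blood in its values was not tested. At day 21, Hpx read 12.08, 12.24, and 12.38 log2 CPM in HNKO livers, all above the highest WT value of 11.82, with a difference of 0.64 ± 0.19 and an adjusted p of 0.0509. Hp differed by 0.49 ± 0.22 (adjusted p = 0.218). At day 3, the differences were 0.55 ± 0.19 in Hp (adjusted p = 0.0881) and 0.35 ± 0.16 in Hpx (adjusted p = 0.214). For the mean of the 4 days, Hp was 1.77-fold higher (adjusted p = 1.31e-07) and Hpx 1.72-fold higher (adjusted p = 2.19e-08). Across the 38 libraries, the log2 ratio of Hp to Hpx had an SD of 0.24, while the genes themselves had SDs of 0.63 and 0.57.

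Fibrinogen is a hexamer of paired α, β, and γ chains, encoded by Fga, Fgb, and Fgg in 1 cluster on chromosome 3. Fgg lies on the plus strand from 83007724 to 83015049, Fga on the plus strand from 83026076 to 83033627, and Fgb on the minus strand from 83040141 to 83049863. The 3 chains were abundant in WT livers, at medians of 2096 FPKM for Fga, 1973 for Fgg, and 1563 for Fgb. At day 6, Fga read 12.47, 12.48, 12.73, and 12.77 log2 CPM in WT livers and 12.82, 13.14, 13.16, 13.41, and 13.48 log2 CPM in HNKO livers, which did not overlap. Fga was higher by 0.60 ± 0.19 (1.52-fold, adjusted p = 0.0281, edgeR). Fgg was higher by 0.55 ± 0.18 (1.46-fold, adjusted p = 0.0391). Fgb differed by 0.56 ± 0.20 (1.47-fold), just outside the threshold (adjusted p = 0.0569). In Fgb and Fgg, 4 of the 5 HNKO libraries lay above every WT library, and library 29, the highest of the day in Lcn2, Hp, and Hpx, was the lowest HNKO library in all 3 chains. These calls were close to the threshold. Fga was no longer called without HNKO library 6 or 7 or WT library 10 or 27 (0.53 to 0.56, adjusted p from 0.0613 to 0.0873), and Fgg without any of these or without WT library 8 or 28 (0.47 to 0.60, adjusted p from 0.0512 to 0.111). Fgb was called without HNKO library 29 (adjusted p = 0.0367), and with total-count scaling, DESeq2, a minimum of 10 counts per library, or the label series (the runs of library numbers) as a covariate (adjusted p from 0.000898 to 0.0344). The calls of Fga and Fgg were also lost without the filter on low counts, with all 40 libraries, or in a fit of the 2 groups of day 6 alone, with Fga at 0.59 to 0.62 (adjusted p from 0.0512 to 0.0939). Fgg was lost with the newer dispersion computation of edgeR as well, and stood at 0.54 to 0.57 over these fits (adjusted p from 0.0511 to 0.112). A lincRNA on the opposite strand, Gm30097, overlaps Fgg and had a median of 17.5 counts.

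At days 3, 12, and 21 the genotype differences of the fibrinogen chains ran from -0.08 (Fgg, day 21) to 0.13 (Fga, day 3), with adjusted p-values of at least 0.729 (edgeR). At day 3, the spread between HNKO livers was wider than between WT livers, with an SD of 0.44 against 0.11 log2 CPM in Fga. HNKO libraries 2 and 23 were the lowest of that day in all 3 chains. They also had its lowest sums of hepatocyte markers (23001 and 23697 CPM). Their sums of cholangiocyte and oval cell markers (403 and 378 CPM) and of stellate cell markers (1064 and 1245 CPM) were its highest. The part of these cells in the spread was not tested. For the mean of the 4 days, Fga, Fgb, and Fgg differed by 0.18, 0.20, and 0.14 (adjusted p = 0.111, 0.110, and 0.209). Fgb was called for this mean with the label series as a covariate (0.23, adjusted p = 0.0281, edgeR) or without HNKO library 23 or 29 (adjusted p from 0.0394 to 0.0499), Fga without HNKO library 23 (adjusted p = 0.0308), and all 3 with total-count scaling. The chains stayed close to each other in every library. The log2 ratio of Fga to Fgg had an SD of 0.056 across the 38 libraries, and those of Fga to Fgb and Fgb to Fgg had SDs of 0.089 and 0.10, while the single chains had SDs of 0.34 to 0.37. By comparison, the log2 ratio of Orm2 to Orm1 had an SD of 1.19.

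The DNA upstream of these genes is shown because the members moved in different degrees while the response is known to act at their promoters. RefSeq sequences of the 250 bases before the gene start (GRCm38.p6) were at hand for 7 of the 10 members, which were Lcn2, Orm2, Hpx, Fga, Fgb, Fgg, and Alb. The strand is that of the gene, 5′ to 3′, capitals mark matches to the motifs listed after them, and 5 are printed, with bases that GENCODE places in exons left out. Orm2 is shown as the member with the largest fold change after Lcn2, the fibrinogen chains as the set that moved together, and Alb as a negative member. The coordinates are chr4:63362199-63362448 for Orm2 on the plus strand, chr3:83025903-83026075 for Fga on the plus strand, chr3:83049864-83050113 for Fgb on the minus strand, chr3:83007474-83007723 for Fgg on the plus strand, and chr5:90460620-90460869 for Alb on the plus strand.
Orm2: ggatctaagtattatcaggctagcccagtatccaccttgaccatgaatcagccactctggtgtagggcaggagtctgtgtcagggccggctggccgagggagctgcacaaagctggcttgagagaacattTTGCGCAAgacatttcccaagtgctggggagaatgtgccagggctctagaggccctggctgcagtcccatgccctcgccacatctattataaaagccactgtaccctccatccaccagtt
Fga: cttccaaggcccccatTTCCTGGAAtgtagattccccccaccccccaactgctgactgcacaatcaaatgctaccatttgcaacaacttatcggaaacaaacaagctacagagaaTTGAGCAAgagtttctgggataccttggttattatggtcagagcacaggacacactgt
Fgb: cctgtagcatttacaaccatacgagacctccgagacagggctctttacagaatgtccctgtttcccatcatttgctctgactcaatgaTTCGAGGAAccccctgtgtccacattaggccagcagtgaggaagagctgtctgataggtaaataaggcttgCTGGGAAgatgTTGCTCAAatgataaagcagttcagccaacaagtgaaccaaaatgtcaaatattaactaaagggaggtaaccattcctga
Fgg: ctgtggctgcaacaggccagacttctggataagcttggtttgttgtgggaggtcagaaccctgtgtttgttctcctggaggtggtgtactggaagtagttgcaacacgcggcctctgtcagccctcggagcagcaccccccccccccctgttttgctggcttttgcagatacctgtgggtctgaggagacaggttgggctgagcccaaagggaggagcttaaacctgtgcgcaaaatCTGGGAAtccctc
Alb: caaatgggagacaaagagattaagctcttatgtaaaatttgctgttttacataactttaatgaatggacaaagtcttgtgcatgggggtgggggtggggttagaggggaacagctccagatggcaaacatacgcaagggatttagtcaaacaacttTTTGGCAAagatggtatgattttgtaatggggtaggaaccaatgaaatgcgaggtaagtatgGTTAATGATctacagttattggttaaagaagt

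The motifs were searched on both strands over the whole 250 bases, and no match of one overlapped a match of another. The C/EBP motif TTGCNNAA occurred before the RefSeq start of Lcn2, Orm2, Hpx, Fga, Fgb, and Alb, thus in the windows of 6 of 7 members, and in 9.56% of 32851 promoters of the same length. The Lcn2 window lies inside the gene as placed by GENCODE, and its match falls in exon bases. In Orm2 the C/EBP motif stood from -120 to -113 before the start, and in Fgb from -80 to -73. The STAT motif TTCNNNGAA occurred in Fga and Fgb, and in 7.02% of all promoters. The core of the interleukin-6 response element, CTGGGAA, occurred in Fgb from -91 to -85 and in Fgg from -13 to -7, and in 9.10% of all promoters. The HNF1 motif GTTAATNAT occurred in Alb from -32 to -24, and in Fga past the GENCODE start and hence outside the printed stretch, while 0.737% of all promoters held it. The NF-κB motif GGNNTTTCC occurred in 0 of the 7 members and in 4.93% of all promoters. These are matches of letters in a short window, and both a positive and a negative member held the C/EBP motif.

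Alb was the member with the highest level by far. It took a median of 8.96% of all counts in WT livers at day 6 and 6.45% in HNKO livers. In WT livers over all days, the order of median levels per length was Alb (40294 FPKM), Ttr (3920), Hpx (2097), Fga (2096), Fgg (1973), Fgb (1563), Hp (858), Orm1 (648), Orm2 (19.4), and Lcn2 (5.21). The ranges of Alb and Ttr, of Ttr and Hpx, and of Orm1 and Orm2 did not overlap between neighbors in this order, whereas those of all other neighbors did. At day 6, the mean level of Lcn2 was 6.58 ± 2.97 FPKM in WT livers and 170 ± 50.5 FPKM in HNKO livers (SD, n = 4 and 5), which is still below the mean of 1468 ± 304 FPKM reached by Orm1.

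**Figure D3:**
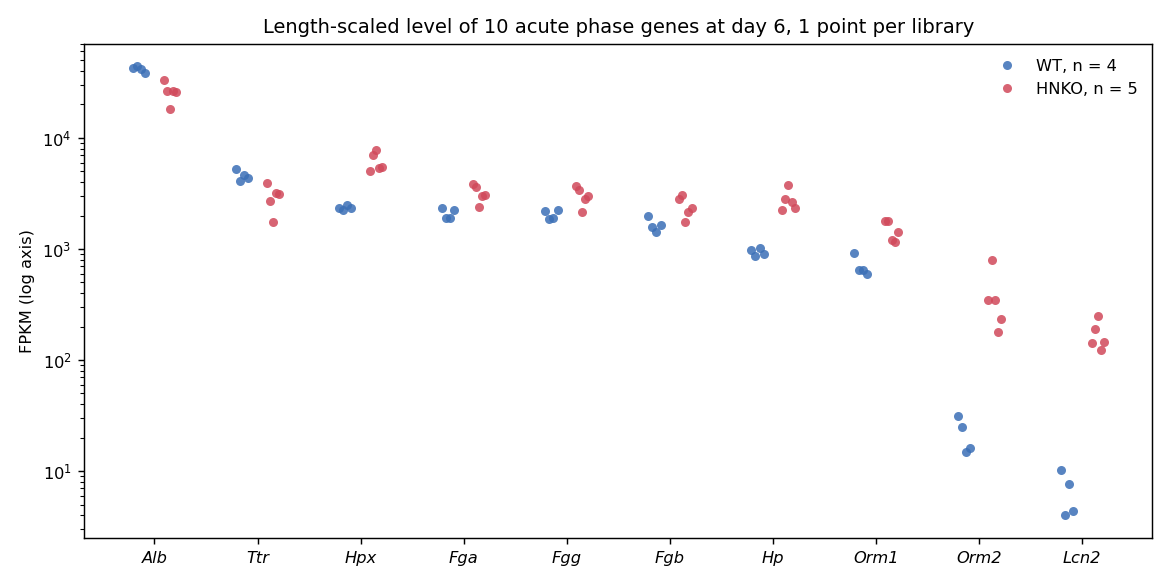
Level per length (FPKM, log axis) of the 10 members at day 6, 1 point per library, in WT (n = 4, blue) and HNKO livers (n = 5, red), in the order of the WT medians. Alb and Ttr of HNKO livers lie below all of their WT points, and the widest gaps between genotypes are those of Orm2 and Lcn2.

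Alb, the main carrier of fatty acids and hormones in plasma, lies on the plus strand of chromosome 5, from 90460897 to 90476602. The Cre of the HNKO mice is driven by the promoter of this gene. At day 6, Alb read 16.47, 16.57, 16.60, and 16.65 log2 CPM in WT livers and 15.38, 15.90, 15.91, 15.93, and 16.25 log2 CPM in HNKO livers. Every HNKO library was below every WT library. Alb fell by 0.67 ± 0.18 on the log2 scale (1.59-fold lower, adjusted p = 0.0138, edgeR). Ttr encodes transthyretin, which carries thyroxine and retinol-binding protein, and lies on the plus strand of chromosome 18, from 20665280 to 20674321. Ttr read 12.24, 12.33, 12.43, and 12.59 log2 CPM in WT livers and 11.02, 11.64, 11.87, 11.90, and 12.17 log2 CPM in HNKO livers, again without overlap. Ttr fell by 0.64 ± 0.18 (1.56-fold lower, adjusted p = 0.0189). In both genes library 29 held the lowest value of the day. Of the 38 libraries it also had the lowest sum of 10 hepatocyte markers (19222 CPM), the highest of 12 neutrophil markers (65.9 CPM), and the highest of 6 cholangiocyte and oval cell markers (754 CPM). Without it Alb differed by -0.55 (adjusted p = 0.0669), and Ttr by -0.57 to -0.48 without it or without WT library 8 (adjusted p from 0.0703 to 0.0998). In the fit of the 2 groups of the day alone neither was called, with Ttr at -0.64 (adjusted p = 0.111). Alb was not called without the filter or with the newer dispersion computation either, with -0.67 to -0.66 over these 3 fits (adjusted p from 0.0577 to 0.216, edgeR). At the other days the estimates were below 0 too, from -0.47 to -0.33 in Alb and from -0.35 to -0.30 in Ttr, but did not pass the test (adjusted p from 0.110 to 0.375). For the mean of the 4 days, Alb was 1.38-fold lower (adjusted p = 0.000157) and Ttr 1.32-fold lower (adjusted p = 0.000678).

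Positive and negative members were also set against each other within each library, as the mean log2 CPM of the 8 positive genes minus that of the 2 negative genes. In WT livers it lay between -5.30 and -4.46 over all days. In HNKO livers it ran from -4.03 to -3.09 at day 3 and from -2.78 to -1.83 at day 6. At day 12 it ran from -4.76 to -3.07, and at day 21 from -4.21 to -3.59. The genotypes did not overlap at days 3, 6, and 21 and overlapped at day 12. Being built from genes that were already compared, this measure is a description and was not tested.

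Taking single genes, the libraries of HNKO and WT did not overlap in 2 members at day 3 (Lcn2 and Orm2, both higher), against 4.11% of all genes. At day 6 they did not overlap in 8 members, 6 higher and 2 lower, against 12.8%. At day 12 they overlapped in all 10, where 4.79% of all genes did not overlap. At day 21 they did not overlap in Lcn2, Orm2, and Hpx, all higher, against 13.9%. Groups of 3 are more easily separated than groups of 5, so these shares are read within a day only. The library numbers fall into runs of 1 to 21 and 22 to 41, each of which passes through the days, and 7 day comparisons had both genotypes within a run. Lcn2, Orm2, Hp, Hpx, and Fgb were higher in HNKO livers in 7 of 7, Orm1 in 6, Fga in 5, and Fgg in 4. Alb and Ttr were lower in 7 of 7. The share of all genes with the same sign in 7 of 7 was not counted, so these counts are descriptions. The sizes varied, with Fgb as low as 0.0040 at day 3 in the second run. At day 12, the log2 difference in the first and second run was 4.30 and 1.85 in Lcn2, 1.14 and 0.12 in Hp, and -0.53 and -0.092 in Alb. Libraries 32 and 35 both belong to the second run. What the runs stand for is not given in the sources used here.

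Other genes of the response were read from lists chosen by known function. Of 22 other positive acute phase genes, 12 were higher at day 6 and 0 lower, with a median log2 fold change of 0.94, and 4, 8, and 1 were higher at days 3, 12, and 21. Of all genes, 8.42% were higher at day 6, and 2.95%, 4.56%, and 2.21% at days 3, 12, and 21, so that 1 of 22 at day 21 is near the share of all genes. The serum amyloid genes Saa1 and Saa2, which encode major acute phase proteins of the mouse, were 50.6-fold and 65.5-fold higher at day 6 (adjusted p = 2.93e-06 and 2.20e-06, edgeR). Lrg1, a leucine-rich glycoprotein of plasma, was 4.39-fold higher (adjusted p = 6.75e-06). Of 8 other negative acute phase genes, 1 was lower at day 6, Rbp4, whose product is carried in plasma by transthyretin (-0.56 ± 0.15, adjusted p = 0.0102). Of all genes, 4.37% were lower at that day. In the mean of the 4 days, 3 of these 8 were lower, against 17.3% of all genes, with Rbp4 at -0.55, the glucocorticoid carrier Serpina6 at -0.92, and the thrombin inhibitor Serpinc1 at -0.25.

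Of 21 cytokines, receptors, and factors of the response, 9 were higher at day 6 and 0 lower, with a median of 0.33, where 8.42% and 4.37% of all genes were called. At day 3, 1 was higher and 2 were lower, against 2.95% and 1.71%, and 2 and 1 were higher at days 12 and 21, with 0 lower, against 4.56% and 2.21% of all genes higher. Over the mean of the 4 days, 11 were higher and 3 lower, against 19.2% and 17.3%. Osmr, the oncostatin M receptor, was 2.72-fold higher at day 6 (adjusted p = 8.36e-05, edgeR). Il1r1, the interleukin-1 receptor, was 2.44-fold higher (adjusted p = 8.67e-06). Socs3, a feedback inhibitor of STAT3 signaling, was 4.55-fold higher (adjusted p = 0.00200) and differed by -0.08 at day 3. Of 10 receptors and partners of the members, 2 were higher and 5 lower for the mean of the 4 days, with a median of -0.10, against 19.2% and 17.3% of all genes. The share called higher is that of all genes. At day 6 alone, 2 of this list were higher and 0 lower, against 8.42% and 4.37% of all genes. At day 3, 0 were higher and 1 lower, against 2.95% and 1.71%. At day 12, 1 was higher and 1 lower, against 4.56% and 3.27%, and at day 21, 0 were called. Thbd, the thrombin receptor thrombomodulin, was higher by 0.66 for the mean. Cd163, the macrophage receptor for haptoglobin with hemoglobin, was lower by 0.52 for the mean but differed by -0.069 at day 6 (adjusted p = 0.886, edgeR). It was called lower at days 3 and 12 (-0.85 and -0.80, adjusted p = 0.0194 and 0.0151, edgeR). F13b, the carrier subunit of the factor that cross-links fibrin, was lower by 0.35 for the mean.

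Of the markers of other liver cell types, most of those of neutrophils and cholangiocytes were called higher at day 6, and most of those of the other types were not called. The summed CPM of 12 neutrophil markers ran from 4.15 to 8.15 over all WT livers and from 20.6 to 65.9 in HNKO livers at day 6, without overlap at that day. In HNKO livers of days 3, 12, and 21 the sums ran from 6.06 to 14.1, from 4.70 to 20.6, and from 6.62 to 14.9. All 7 of these markers that could be tested were higher at day 6, among them Cxcr2, S100a9, and Csf3r. Ly6g, Mpo, Elane, Camp, and Ngp fell below the filter on low counts. Retnlg, Mmp8, and Cxcr2 had median counts of 2, 3, and 7, under the minimum count of 10, and passed through their highest libraries. The count of 7 therefore depends in part on the filter. At days 3, 12, and 21, 0, 3, and 1 of the 7 were called higher, against 2.95%, 4.56%, and 2.21% of all genes. Ly6g, a defining surface marker, had 0 counts in all WT livers of days 6, 12, and 21, and Mpo, the granule peroxidase, in all WT livers of day 6. Over all 38 libraries of both genotypes, Ly6g reached at most 3 counts and Mpo at most 7, each with a median of 0. The sum of 6 cholangiocyte and oval cell markers ran from 34.3 to 48.8 CPM in WT livers and from 107 to 754 CPM in HNKO livers over the 4 days, and 5 of the 6 were higher at day 6. Of 8 macrophage and Kupffer cell markers, 2 were higher at day 6 (sums of 611 to 779 and 759 to 1017 CPM), and of 7 stellate cell and myofibroblast markers, 2 were higher (489 to 543 and 642 to 1242 CPM). Of 5 endothelial markers, 1 was lower at day 6. Of all genes, 8.42% were higher and 4.37% lower at this day. In the mean of the 4 days, all 7 tested neutrophil and all 6 cholangiocyte markers were higher, 6 of the 8 macrophage markers were higher, and of the 7 stellate cell markers 5 were higher and 1 lower, against 19.2% and 17.3% of all genes. Of 5 genes of red blood cells, 0 were called at day 6 with edgeR and 0 had an unadjusted p under 0.05.

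The sum of 10 hepatocyte markers, which do not include the members, ran from 30946 to 35975 CPM in WT livers and from 19222 to 32127 CPM in HNKO livers at day 6. Of these 10, 0 were called at day 6 with edgeR and 4 had an unadjusted p under 0.05, as did 26.6% of all genes, with a median log2 fold change of -0.39. Of the 10, 5 were lower for the mean of the 4 days, against 17.3% of all genes, with a median of -0.24. The part of neutrophil, cholangiocyte, or hepatocyte shares in the values of Lcn2 or any other member was not tested.

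**Figure D4:**
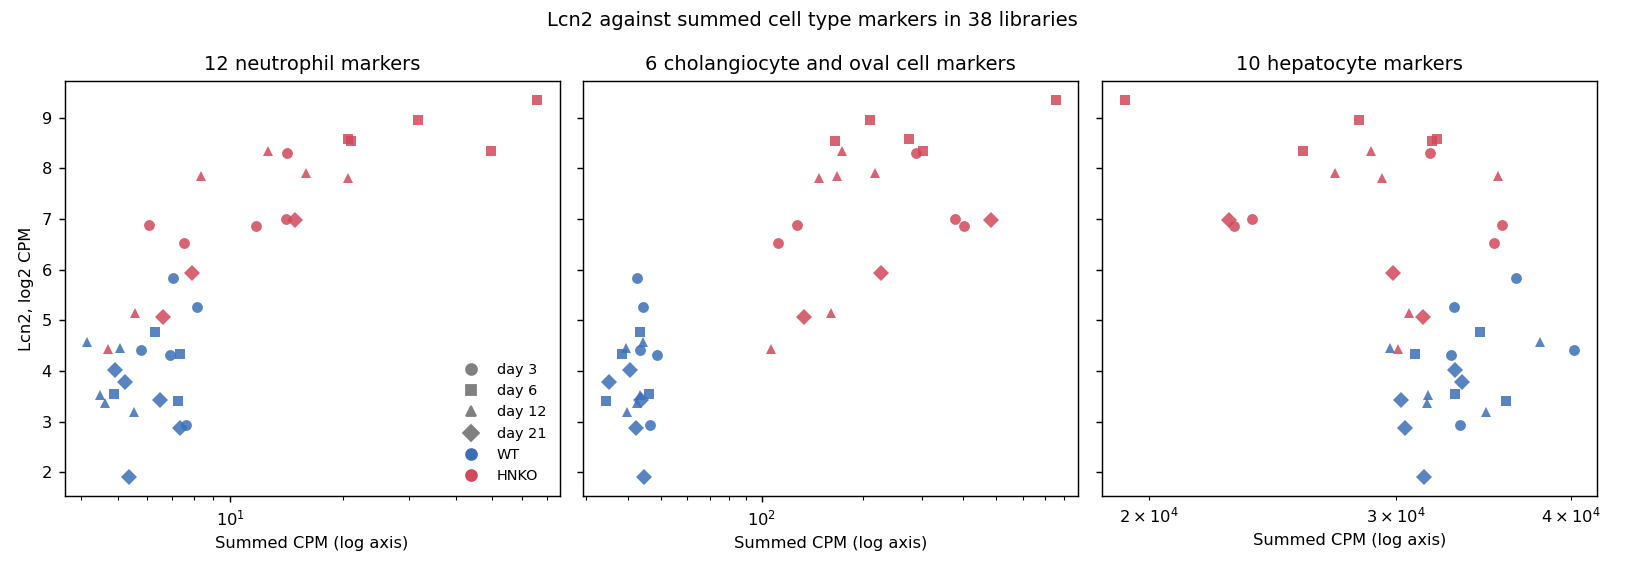
Log2 CPM of Lcn2 (y axis) against the summed CPM (log axes) of 12 neutrophil, 6 cholangiocyte and oval cell, and 10 hepatocyte markers in the 38 libraries, with color for genotype and shape for day. The HNKO libraries of day 6 hold neutrophil sums of 20.6 to 65.9 CPM, HNKO library 11 of day 12 also reads 20.6 CPM, and all HNKO libraries lie above all WT libraries in the cholangiocyte sum.

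Finally, the genes most like a member were listed by Pearson's r of log2 CPM over the 38 libraries, which share genotype and day, so the values are descriptions. For Lcn2 the 5 genes were Saa1 (r = 0.917), Saa2 (0.915), the neutrophil serine protease gene Prtn3 (0.915), the member Orm2 (0.909), and Lrg1 (0.906). For Orm2 they were Saa1 (0.942), Saa2 (0.937), Lcn2 (0.909), Hpx (0.901), and Lrg1 (0.900), so that 2 of the 5 were members. For Fgb the first 2 were the other fibrinogen chains, Fga (0.972) and Fgg (0.962), followed by Serping1 (0.897), Cfi (0.894), and Ambp (0.890), which all encode secreted plasma proteins. The r with Fgb was 0.483 for Lcn2 and -0.12 for Alb. For Alb they were Cd300lg (0.883), Ttr (0.874), Dmgdh (0.871), Cyp2b9 (0.864), and Ndufa6 (0.852), and Alb stood at -0.70 with Lcn2.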

How the data were processed

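Total RNA from the livers of 40 mice, after removal of rRNA, gave paired-end reads of 51 bp. The authors aligned these to GRCm38 with STAR 2.7.2b and the GENCODE M22 gene model, summarized fragments per gene with featureCounts 1.6.4, and deposited raw counts without normalization. The strand setting of the counting is not given in the sources used here. Of the 55487 genes, 55394 were matched to a symbol. The 2 libraries that failed quality control were left out. Positions and exon lengths came from GENCODE M21.

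The edgeR function filterByExpr, with a minimum count of 10, a total of at least 15, and a proportion of 0.7, left 20297 genes and 99.9% of counts. TMM-scaled counts of the 38 libraries were fitted with 1 mean per genotype and day (edgeR 4.0.16, R 4.3.3, legacy dispersion computation) and tested with the quasi-likelihood test and the Benjamini-Hochberg adjustment. Standard errors are those that the test statistic implies. Log2 CPM used a prior count of 2, and FPKM divides TMM-scaled CPM by the exon length. Total counts ran from 16151037 to 64181492 per library. In WT livers the low genes Lcn2 and Orm2 had 94 to 1623 and 166 to 778 counts. Their SDs within the WT groups were 0.65 to 1.10 and 0.47 to 0.64 log2 CPM. The part of depth in this spread was not tested. P-values measure the spread between mice, 3 to 6 per group.

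The daily tests were checked on simulated data with 200 genes changed by a log2 fold change of 2, of which 83.5% to 90.0% were recovered at a day, with 4.26% to 7.22% of calls false. For the mean of the 4 days, in which a change at 1 day is diluted, 56.5% to 61.5% were recovered with 3.42% to 7.75% false, and for the interaction 75.5% to 81% with 4.71% to 8.48% false. Smaller differences, such as 0.60 in Fga, 0.55 in Fgg, and -0.67 in Alb at day 6, were not simulated. The shares recovered therefore do not say how often differences of that size would be called. The members, gene lists, tests, and alternatives were chosen with earlier results of these data known. The named genes are the members, Nampt, Orm3, the 3 genes of each list with the smallest p for the mean of the 4 days, markers at 0 counts, and the 5 genes most like Lcn2, Orm2, Fgb, and Alb. Gm30097 and Gdap10 are named as overlapping genes. Alternatives were RLE or total-count scaling, DESeq2 1.42.0, a filter of 10 counts in each library or none, inclusion of all 40 libraries, separate fits per day of its 2 groups, the edgeR 4 dispersion computation, a covariate for the run of library numbers (the label series), and omission of 1 library at a time.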

Additional observations from a re-analysis of the deposited data

Results flagged for a closer look

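A sample far from the others of its group was found in 6 of 70 groups of members tested by Dixon's criterion, where chance gives about 1 in 20. HNKO library 3 of day 3 stood above its group in Lcn2 (8.30 log2 CPM) and in Orm2 (7.04 log2 CPM). WT library 26 of day 3 stood below its group in Orm2, at 3.24 log2 CPM. WT library 33 of day 12 was the highest in Hp, at 10.74 log2 CPM. In Fgg, WT library 25 of day 3 was the lowest at 12.09 log2 CPM, and WT library 15 of day 12 was the highest at 12.33 log2 CPM.

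The 2 HNKO libraries of day 21 that failed quality control were scaled with all 40 libraries and lay above the highest WT library of day 21 in several members. Lcn2 read 4.61 log2 CPM in library 17 and 6.54 in library 18, against a highest WT value of 4.03. Orm2 read 5.37 and 5.80, against 4.13. In library 18 alone, Hp read 11.11 against 10.69, and Hpx read 12.09 against 11.82. With these libraries included, 3 members were called at day 21. The share of all genes called in that fit is not given here.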

How the results depend on the processing

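Of the results under alternatives other than leaving out a library, 401 kept their direction and side of the threshold, 22 passed it newly, 12 lost it, and 5 changed sign. At day 3, 3 members were called with total-count scaling, which added Hp and Hpx and called 1657 of all genes higher and 135 lower. DESeq2 called 2, adding Alb, and fits with a library left out called 1 to 2 (2 without HNKO library 4, which added Alb). At day 6, the fit of only the 2 groups of the day called 5, with fewer genes and fewer samples, and lost Alb, Ttr, Fga, and Fgg. At day 21, 2 were called with RLE scaling, DESeq2, the filter of at least 10 counts, or the 2-group fit, and 3 with total-count scaling, all 40 libraries, or the label series as a covariate, where the additions were Hpx and Orm2. The cause was not tested. Over all genes at day 21, RLE scaling called 478 higher and 171 lower, and total-count scaling 1156 and 56. Leaving out a library gave 7 to 9 members at day 6, 3 to 4 at day 12, 0 to 1 at day 21 (0 without HNKO library 37), and 7 to 9 for the mean of the days, and the interaction stayed at 0. Total-count scaling called all 10 for the mean of the days, where it called 8626 of the 20297 tested genes higher and 937 lower. The label series called 8 for this mean, adding Fgb. At day 12, total-count scaling called 5, adding Orm1, with 2124 of all genes called higher and 150 lower. The 2-group fit of that day called 3, losing Hp. The shares of all genes called under the other alternatives are not given here.

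Signs changed only in values that were not called. At day 21, Fga was 0.18 with total-count scaling and 0.075 with the label series, Fgg was 0.13 and 0.0093, and Fgb was -0.033 with all 40 libraries. With a library left out, Fga ran from -0.032 to 0.14 at day 12 and from -0.14 to 0.098 at day 21, Fgb from -0.011 to 0.22 at day 3 and from -0.081 to 0.16 at day 21, Fgg from -0.029 to 0.20 at day 3, from -0.031 to 0.13 at day 12, and from -0.19 to 0.065 at day 21, and Orm1 from -0.066 to 0.25 at day 3. No paired analysis was made. The replicate numbers are the library numbers, each used once, and so cannot show whether WT and HNKO mice came from the same litters.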
